A study of Drosophila melanogaster with 30 samples.

Results

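The genes described are dm, which encodes the Drosophila homolog of the transcription factor Myc, and 5 genes of nucleolar growth: nop5, Fib, Nop60B, Nopp140 and Ns1. They were chosen by name, 6 of the 14284 genes listed in every count file, and all 6 were found and passed the filter on low counts for both marks. H3K4me3, the trimethyl mark of active gene starts, and H3K27me3, the mark placed by the Polycomb repressive complex PRC2, were profiled by chromatin immunoprecipitation of chromatin cut with micrococcal nuclease, in cells taken from brains of L3 larvae at the wandering stage. The groups were neurons, brat RNAi numb RNAi neuroblasts (below, brat numb RNAi), brat RNAi neuroblasts and type I neuroblasts, the neural stem cells that serve here as the unperturbed neuroblasts. The labels call both RNAi groups tumor neuroblasts, and the driver, the RNAi lines and the type of lineage behind them are not given in the sources used here. Each group had 2 libraries per mark, and 14 inputs were not used here. Nothing states that libraries of a group came from separate animals, so p-values measure the spread between these samples, which may be technical. In such bulk samples, fewer marked cells and less mark per cell cannot be told apart.

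Myc binds DNA with its partner Max and drives cell growth, in large part by raising the output of ribosomes. Ribosomes are assembled in the nucleolus, where small nucleolar ribonucleoproteins (snoRNPs) modify ribosomal RNA at sites set by guide RNAs. Larval neuroblasts regrow after each division and have large nucleoli, and the RNA-binding repressor Brat is known to limit Myc and growth in the daughters of type II neuroblasts, while Numb inhibits Notch. Within the set, nop5 (the homolog of NOP58) and Fib (fibrillarin, the methyltransferase) are box C/D snoRNP proteins. Nop60B, the homolog of dyskerin, is the pseudouridine synthase of box H/ACA snoRNPs, Nopp140 is a chaperone of snoRNPs in the nucleolus, and Ns1 encodes a nucleostemin, a nucleolar GTPase needed for growth.

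H3K4me3 was counted in the 501 bases from the outer start of each gene, and H3K27me3 over the whole gene model, in dm3 coordinates. The start window of dm (FBgn0262656) was X:3267216-3267716 on the plus strand, and its gene model spanned 12834 bases to 3280049. No other gene started within 56781 bases of it. The window of nop5 (FBgn0026196, minus strand) was 2L:6918241-6918741, and its 1989 bases lie wholly inside x16 on the same strand, so their H3K27me3 reads are shared. That of Fib (FBgn0003062, minus strand, 1824 bases) was 2R:18961743-18962243, with the divergent CG3085 starting 109 bases away. That of Nop60B (FBgn0259937, plus strand, 11619 bases) was 2R:20062248-20062748, with mRpS17, on the other strand, starting 290 bases away. Nopp140 (FBgn0037137, plus strand, 3941 bases) had the window 3L:21825845-21826345, 540 bases from the start of CG7148. Ns1 (FBgn0038473, minus strand, 2265 bases) had the window 3R:12898009-12898509, which shares 57 bases with that of the divergent mRpS11. The nearest other start to nop5 was that of x16, 1533 bases away, and windows of the other 4 may hold signal of the adjoining promoter.

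Libraries held 2461222 to 12258131 counted reads for H3K4me3 and 15281722 to 25009648 for H3K27me3. The lowest count at any of the 6 genes was 204 for H3K4me3 and 60 for H3K27me3. Contrast between marked and unmarked genes was taken as the ratio of the 90th to the 10th percentile of scaled counts per kilobase. For H3K4me3 this ratio was 67.5 and 19.1 in neurons, 12.3 and 52.1 in brat numb RNAi, 44.6 and 25.4 in brat RNAi and 96.2 and 49.8 in type I neuroblasts (replicates 1 and 2 in each). The summed H3K4me3 of 6 neuroblast markers was 191 and 187 CPM in neurons, 517 and 951 in brat numb RNAi, 735 and 479 in brat RNAi and 1161 and 884 in type I neuroblasts. The summed level of 6 neuronal markers was 805 and 532 CPM in neurons, 183 and 217 in brat numb RNAi, 172 and 194 in brat RNAi and 547 and 224 in type I neuroblasts, so replicate 1 of the type I neuroblasts carried the mark at neuronal genes above the other neuroblast libraries. Of the neuronal markers para was at 1.51 to 7.57 CPM in all 8 libraries. Summed glial and hemocyte markers stayed at 9.11 to 38.0 CPM throughout, and those of muscle, mostly Mef2, at 60.6 to 146. The 4 type II lineage markers summed to 72.9 and 116 CPM in neurons, 79.8 and 90.9 in brat numb RNAi, 176 and 167 in brat RNAi and 56.8 and 66.3 in type I neuroblasts. In brat RNAi btd had 69.8 and 54.6 CPM and Sp1 90.8 and 67.8, above every library of the other groups. There erm had 7.5 and 36.3 CPM and pnt 7.91 and 8.35, which did not stand above the other groups. The sum of the neuroblast markers was thus lower in both neuron libraries than in every neuroblast library, whereas the sum of the neuronal markers in replicate 1 of the type I neuroblasts exceeded that in replicate 2 of the neurons. The gene ase, which type II neuroblasts lack, had 103 and 171 CPM in brat numb RNAi, against 8.41 and 34.1 CPM in brat RNAi. The part of the markers and of contrast in the results below was not tested, except where a value is given.

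H3K4me3 at all 6 starts was lower in both neuron libraries than in both libraries of type I neuroblasts. At dm it was 71.6 and 45.4 CPM (counts scaled to a common library size, with TMM factors) in neurons, 59.8 and 89.5 in brat numb RNAi, 127 and 67.1 in brat RNAi and 191 and 76.5 in type I neuroblasts. The neuron libraries lay below both type I libraries by a narrow margin, since replicate 2 of the type I neuroblasts stood only just above replicate 1 of the neurons, and both RNAi groups overlapped the type I range.

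The box C/D gene nop5 had the widest gap. Its H3K4me3 was 53.0 and 49.1 CPM in neurons, 62.0 and 209 in brat numb RNAi, 175 and 65.5 in brat RNAi and 200 and 190 in type I neuroblasts. Neurons and type I neuroblasts were each tight and far apart, whereas each RNAi group held 1 library near the neurons and 1 near the type I neuroblasts. Fib had 64.5 and 48.8 CPM in neurons, 54.0 and 84.1 in brat numb RNAi, 91.2 and 68.8 in brat RNAi and 124 and 117 in type I neuroblasts. Both type I libraries stood above all 6 other libraries, and they were closely alike.

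Nop60B, the H/ACA enzyme, had 64.2 and 54.2 CPM in neurons, 71.3 and 174 in brat numb RNAi, 172 and 105 in brat RNAi and 208 and 164 in type I neuroblasts. Both neuron libraries lay below the other 6. Nopp140 had 187 and 85.2 CPM in neurons, 70.8 and 180 in brat numb RNAi, 180 and 84.5 in brat RNAi and 280 and 206 in type I neuroblasts. Both type I libraries stood above the other 6, and neurons and the RNAi groups covered one range. Ns1 had 109 and 80.1 CPM in neurons, 93.5 and 205 in brat numb RNAi, 199 and 73.6 in brat RNAi and 243 and 163 in type I neuroblasts, with the neuron values overlapping both RNAi groups.

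**Figure D1:**
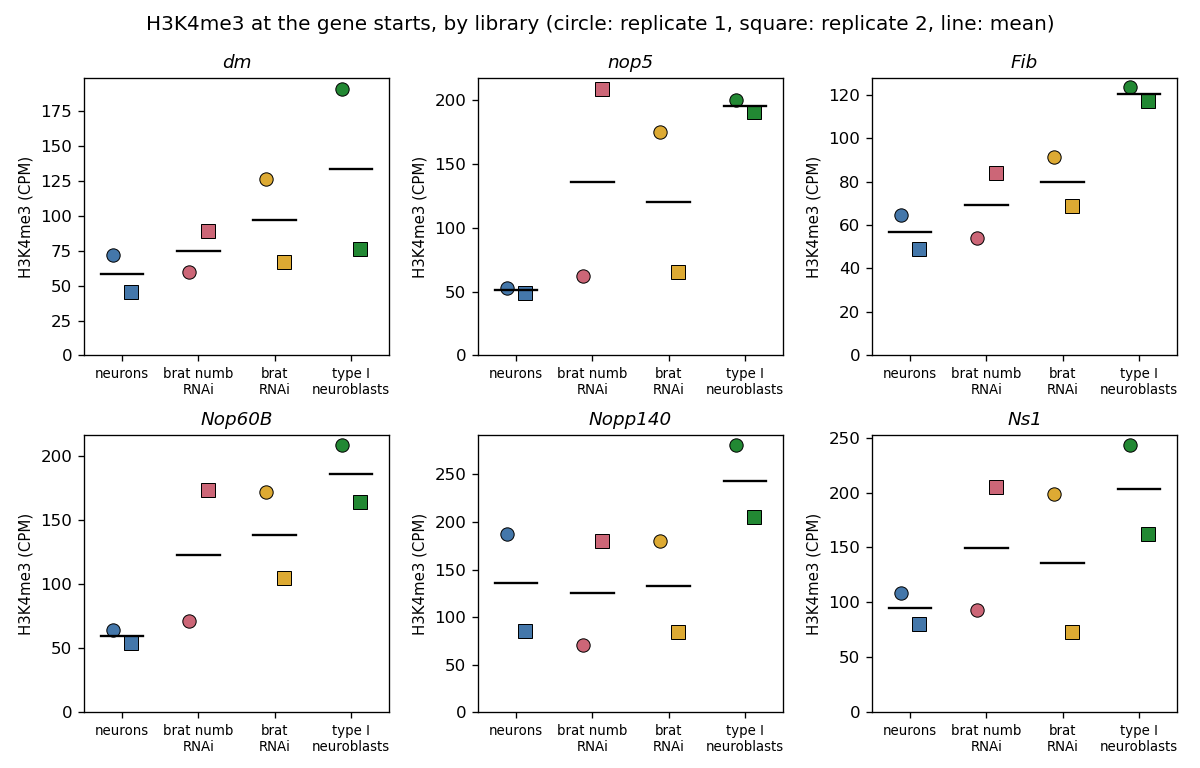
H3K4me3 (CPM, y axis from 0) at the start of each of the 6 genes in neurons, brat numb RNAi, brat RNAi and type I neuroblasts; circles are replicate 1, squares replicate 2 and lines the mean of 2 libraries. At nop5 the neurons sit at 53.0 and 49.1 CPM and the type I neuroblasts at 200 and 190, while each RNAi group splits between these levels.

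The means were highest in type I neuroblasts at all 6 genes, while the order of the other groups differed between genes. For dm the means were 58.5 ± 18.5 CPM in neurons, 74.6 ± 21.0 in brat numb RNAi, 96.9 ± 42.0 in brat RNAi and 134 ± 81.1 in type I neuroblasts (SD, n = 2 each). No neighbours in this order differed beyond their spread. At Nopp140 the means were 136 ± 72.2 CPM in neurons, 125 ± 76.9 in brat numb RNAi and 132 ± 67.6 in brat RNAi. For nop5 the means were 51.1 ± 2.80 CPM in neurons and 195 ± 6.54 in type I neuroblasts, with 135 ± 104 in brat numb RNAi and 120 ± 77.6 in brat RNAi. All windows having the same length, levels can be compared between the genes. In type I neuroblasts Nopp140 had the highest mean of the 6, 243 ± 53.0 CPM, and Fib the lowest, 120 ± 4.82 CPM.

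Ranked among all genes of a library, all 6 starts lay in the upper part of the H3K4me3 levels in every group. In neurons dm, nop5, Fib and Nop60B stood at the 61.1 to 63.7 percentile of H3K4me3, Ns1 at 68.8 and 72.5 and Nopp140 at 80.8 and 74.2. In type I neuroblasts nop5 stood at the 74.8 and 85.4 percentile, Nop60B at 76.2 and 77.9, Ns1 at 82.7 and 77.5 and Nopp140 at 88.4 and 89.5. Fib stood at 62.5 and 62.2 in neurons, against 64.1 and 66.3 in type I neuroblasts, close to the same rank. For dm it was 63.3 and 61.2 in neurons, against 73.3 and 61.2 in type I neuroblasts.

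Setting neurons against type I neuroblasts asks how the mark differs between differentiated cells and stem cells. In edgeR's quasi-likelihood fit of the 8 libraries no start reached an adjusted p under 0.05, a threshold that 0.451% of the 14185 genes passed. By unadjusted p under 0.05, 2 of the 6 were lower, where 7.23% of all genes had such a p, and none was called by DESeq2, which called 2.49% of all genes. The log2 fold change was -1.93 ± 0.69 (SE) at nop5 (adjusted p = 0.24) and -1.65 ± 0.68 at Nop60B (adjusted p = 0.42). At dm it was -1.19 ± 0.67 (adjusted p = 0.77), and at Fib, Ns1 and Nopp140 it was -1.09 ± 0.67, -1.10 ± 0.67 and -0.83 ± 0.66 (adjusted p = 0.78 each). The median over the 6 was -1.15, against 0.24 for all genes. Non-overlap downward, seen at all 6 starts, occurred at 19.5% of all genes.

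Whether a call was made depended on how the spread was estimated. In a fit of these 2 groups alone nop5 and Nop60B passed; 3% of all genes fell in that fit. With the SBa code of the library as a block (a code in the labels whose meaning is not stated, taken as a possible batch) all 6 passed, at log2 fold changes of -1.93 ± 0.30 for nop5 (adjusted p = 1.3e-08), -1.65 ± 0.30 for Nop60B (1.8e-06), -1.10 ± 0.32 for Fib (0.0047), -1.09 ± 0.31 for dm (0.0036), -1.09 ± 0.30 for Ns1 (0.0029) and -0.92 ± 0.30 for Nopp140 (0.013). In that fit 16.2% of all genes fell, and it left 1 residual degree of freedom. Neurons and type I neuroblasts share codes 27 and 51, so each code gives 1 ratio of single libraries. For code 27 the log2 ratio of neurons to type I neuroblasts was -1.91 at nop5, -1.69 at Nop60B, -1.41 at dm, -1.16 at Ns1, -0.94 at Fib and -0.58 at Nopp140, with a median of 0.08 over all genes. For code 51 it was -1.95 at nop5, -1.59 at Nop60B, -1.27 at Nopp140, -1.26 at Fib, -1.02 at Ns1 and -0.75 at dm, with a median of 0.25. All 12 ratios were below 0, and nop5 and Nop60B were the lowest pair in both codes.

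**Figure D2:**
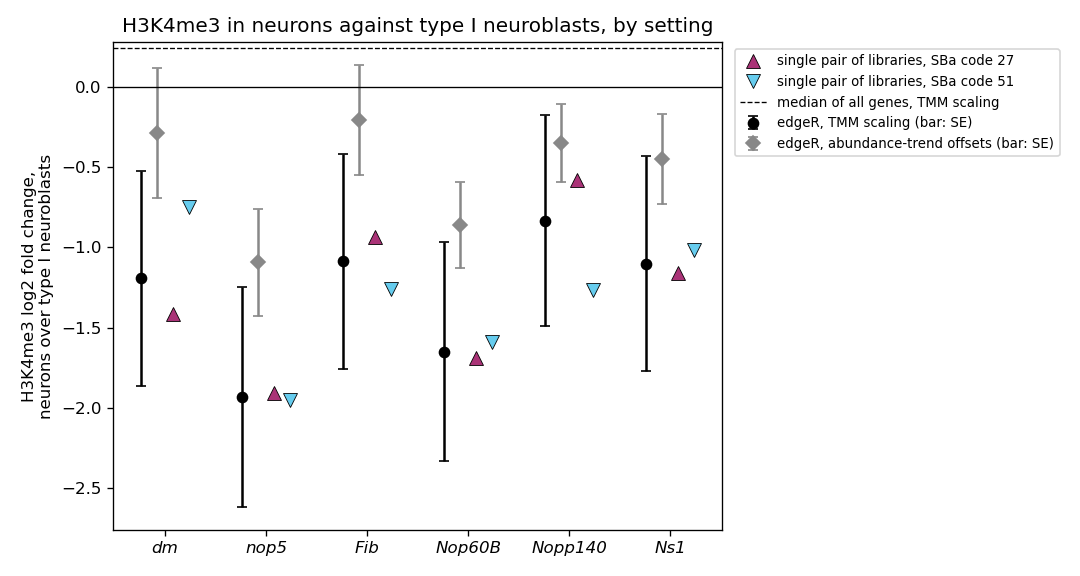
H3K4me3 log2 fold change of neurons over type I neuroblasts (y axis) at each gene, from the edgeR fit of 8 libraries with TMM scaling (black circles, bars SE), from the same fit with offsets that follow abundance (grey diamonds, bars SE), and as ratios of single libraries within SBa codes 27 and 51 (triangles). Every value is below 0 and below the dashed median of all genes at 0.24, and the offsets bring the median of the 6 to -0.40.

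Contrast differed between libraries, within groups as well as between them, and the size of the fold changes at the 6 genes moved with its treatment. With offsets that remove a smooth trend of each library with abundance, all 6 values stayed below 0, at -1.09 ± 0.33 for nop5, -0.86 ± 0.27 for Nop60B, -0.45 ± 0.28 for Ns1, -0.35 ± 0.24 for Nopp140, -0.28 ± 0.41 for dm and -0.20 ± 0.34 for Fib, with a median of -0.40 against 0.04 for all genes and no call. The value at dm rested on replicate 1 of the type I neuroblasts, the library with the raised neuronal markers: without it the log2 fold change was -0.39, and without replicate 2 it was -1.71. At nop5 the same 2 values were -1.90 and -1.97.

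Starts next to those of the 6 genes gave values of their own. In neurons against type I neuroblasts the log2 fold change was -1.01 ± 0.74 at CG3085 beside Fib, -0.87 ± 0.66 at mRpS11 beside Ns1, -0.67 ± 0.67 at CG7148 beside Nopp140, -0.53 ± 0.63 at mRpS17 beside Nop60B and 0.05 ± 0.62 at x16, which encloses nop5. None passed (edgeR, adjusted p of 0.78 to 0.98). Nop60B and nop5 thus had lower values than their neighbours, while Fib, Ns1 and Nopp140 were close to theirs. These differences between starts were not tested. CG3085 was weakly marked, at 11.9 and 13.4 CPM in neurons and 19.3 and 31.3 CPM in type I neuroblasts, far below Fib in each.

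The other genes of the pathway came from lists of the same roles, to be read against all genes, of which 40.5% had a log2 fold change below 0 and 7.23% an unadjusted p under 0.05 in either direction. Of 5 snoRNP partners, all 5 had lower H3K4me3 in neurons than in type I neuroblasts, 3 of them at an unadjusted p under 0.05, with a median log2 fold change of -1.48. The box C/D and H/ACA protein genes hoip and CG4038 were named by the smallest p. For hoip, the homolog of the snoRNA-binding protein SNU13, H3K4me3 was 65.3 and 61.6 CPM in neurons and 202 and 204 CPM in type I neuroblasts (-1.68 ± 0.68, adjusted p = 0.39). For CG4038, which encodes a GAR1-like H/ACA protein, it was 35.0 and 17.1 CPM in neurons and 124 and 76.7 CPM in type I neuroblasts (-1.95 ± 0.69, adjusted p = 0.23).

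All 8 genes of RNA polymerase I and its factors were lower in neurons, 2 at an unadjusted p under 0.05, with a median of -0.93. The polymerase subunit gene RpI12 had 48.5 and 59.8 CPM in neurons and 209 and 206 CPM in type I neuroblasts (-1.93 ± 0.69, adjusted p = 0.23), and the largest subunit's gene, RpI1, had 101 and 76.4 CPM in neurons and 238 and 225 CPM in type I neuroblasts (-1.39 ± 0.67, adjusted p = 0.63). Of 26 genes of nucleolar processing and assembly 25 were lower, 11 at an unadjusted p under 0.05, with a median of -1.29 and 1 exception, the nucleoplasmin-like Nlp at 0.19 ± 0.61. Nmd3, which carries the large ribosomal subunit out of the nucleus, had 51.9 and 23.5 CPM in neurons and 173 and 130 CPM in type I neuroblasts (-2.0 ± 0.69, adjusted p = 0.22). At l(1)G0020 it was 40.1 and 46.0 CPM in neurons and 160 and 169 CPM in type I neuroblasts (-1.93 ± 0.69, adjusted p = 0.23).

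The Myc network itself had values nearer to 0. Of 14 genes 11 were lower in neurons, 1 at an unadjusted p under 0.05, with a median of -0.22. Max, the partner of Myc, was at -0.50 ± 0.64 (adjusted p = 0.80), and Mnt, which competes with Myc for Max, at 0.97 ± 0.67 (adjusted p = 0.78). The lowest p were those of bigmax, the partner of the glucose sensor Mondo, with 77.2 and 38.8 CPM in neurons and 143 and 149 CPM in type I neuroblasts (-1.33 ± 0.67, adjusted p = 0.68), and of CG8184, the homolog of the ubiquitin ligase HUWE1, with 12.7 and 19.5 CPM in neurons and 30.7 and 46.6 CPM in type I neuroblasts (-1.26 ± 0.72, adjusted p = 0.78). No gene of the 4 lists passed the edgeR test of 8 libraries in this comparison. With the SBa code block 5 of 5 snoRNP partners, 5 of 8 polymerase I genes, 22 of 26 processing genes and 4 of 14 Myc network genes fell and 1 Myc network gene rose. In that fit, with 1 residual degree of freedom, 16.2% of all genes fell and 32.5% were called in either direction. With the abundance-trend offsets the medians were -0.94, -0.48, -0.64 and -0.13 in the same order of lists, with no call.

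**Figure D3:**
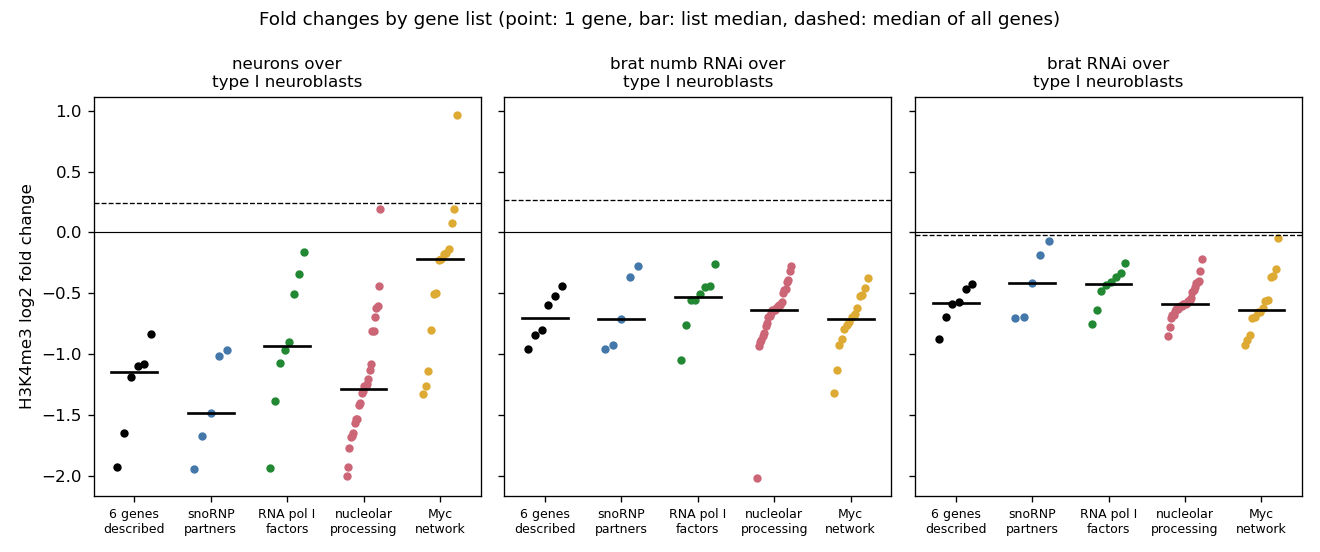
H3K4me3 log2 fold changes (y axis) in neurons, brat numb RNAi and brat RNAi over type I neuroblasts for the 6 genes and 4 gene lists; each point is 1 gene, bars are list medians and dashed lines the median of all genes. In neurons the snoRNP partners lie at a median of -1.48 and the Myc network at -0.22, whereas in brat RNAi the list medians lie between -0.64 and -0.42.

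The RNAi groups, set against type I neuroblasts, give the mark in tumor neuroblasts. In brat RNAi, H3K4me3 at ase was 8.41 and 34.1 CPM, against 156 and 180 in type I neuroblasts, and btd and Sp1 were higher. For brat RNAi, tumor state and type of lineage therefore cannot be told apart. All 6 starts had lower mean H3K4me3 in brat RNAi, with log2 fold changes of -0.42 ± 0.67 at Nop60B to -0.87 ± 0.66 at Nopp140, and -0.46 ± 0.66 at dm. None passed edgeR's test (adjusted p of 0.80 to 0.81), which 0.0987% of all genes did. By unadjusted p under 0.05 the count was 0, as it was with DESeq2 (5.52% and 0.705% of all genes). Both brat RNAi libraries lay below both type I libraries at nop5, Fib and Nopp140, and such non-overlap occurred at 21.6% of genes. With the abundance-trend offsets the median over the 6 was -0.13, with 5 below 0. Without the 2 shallowest libraries, replicate 2 of brat RNAi and replicate 1 of brat numb RNAi, it was -0.05, with 4 below 0, where the fit of 8 libraries gave -0.58. Without replicate 1 of brat RNAi instead it was -1.23, with all 6 below 0.

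In brat numb RNAi the 6 log2 fold changes against type I neuroblasts were -0.44 ± 0.66 at Ns1 to -0.96 ± 0.66 at Nopp140, and -0.84 ± 0.67 at dm (edgeR, adjusted p of 0.64 to 0.68). No member and 0% of all genes passed; 0 members had an unadjusted p under 0.05 and 0 were called by DESeq2 (3.26% and 0.0493% of all genes). Non-overlap downward was seen at Fib and Nopp140 and at 16.7% of genes. The snoRNP partners, polymerase I genes, processing genes and Myc network had medians of -0.71, -0.53, -0.64 and -0.71 in brat numb RNAi, against 0.27 for all genes, and of -0.42, -0.42, -0.59 and -0.64 in brat RNAi, against -0.02 for all genes, with no call in any list. In the fit of 8 libraries with TMM scaling and no block, the Myc network, at -0.22 in neurons, was thus as low as the other lists in both RNAi groups. With the abundance-trend offsets the medians in the same order were -0.16, 0.09, -0.10 and -0.14 in brat numb RNAi. In brat RNAi they were -0.20, 0.10, -0.13 and -0.15. With the SBa code block they were 0.83, 0.13, 0.65 and -0.16 in brat numb RNAi, and -0.19, -0.53, -0.34 and -0.73 in brat RNAi. Without the 2 shallowest libraries the median over the 6 in brat numb RNAi was -0.26, with 4 below 0, and without replicate 2 of brat numb RNAi it was -1.27, with all 6 below 0, against -0.70 with all 8 libraries. With the SBa code block the values at nop5, Ns1, Nop60B and Nopp140 turned to 1.47 ± 0.57, 1.22 ± 0.58, 0.48 ± 0.57 and 0.27 ± 0.59 with no call. The median over the 6 with this block was 0.37, with 2 below 0. Since brat numb RNAi and type I neuroblasts share no code, the block fit links them only through the brat RNAi libraries.

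The fit of 8 libraries gave no direction at these genes for brat numb RNAi over brat RNAi. These groups also differed at ase (103 and 171 against 8.41 and 34.1 CPM of H3K4me3), btd and Sp1. Here numb RNAi and the type of lineage therefore cannot be told apart. The log2 fold changes of brat numb RNAi over brat RNAi ran from -0.38 ± 0.66 at dm to 0.17 ± 0.66 at nop5 (edgeR, adjusted p = 1 each), and 0% of genes passed. No member had an unadjusted p under 0.05, and 0 were called by DESeq2 (1.52% and 0.0775% of all genes). The groups overlapped at all 6 starts. The median over the 6, -0.13, was 0.40 without replicate 1 of brat RNAi and -0.80 without replicate 2 of brat numb RNAi. Within SBa code 68, which holds 1 library of each, the log2 ratios were 1.67 at nop5, 1.47 at Ns1, 1.09 at Nopp140, 0.72 at Nop60B, 0.41 at dm and 0.29 at Fib, and the block fit called nop5 (adjusted p = 0.0022), Ns1 (0.0074) and Nopp140 (0.047) higher, as it did 12.2% of all genes. That call rests on replicate 2 of brat RNAi, the shallowest library, and the part of its depth was not tested.

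Neurons were also set against each RNAi group; these contrasts share the neuron libraries with the one above, and the difference between the contrasts was not tested. Over brat RNAi the log2 fold change was -1.24 ± 0.68 at nop5 and -1.23 ± 0.68 at Nop60B (edgeR, adjusted p = 0.81 and 0.82), -0.73 ± 0.67 at dm, -0.53 ± 0.66 at Ns1, -0.50 ± 0.67 at Fib and 0.04 ± 0.66 at Nopp140 (adjusted p = 1 each). No member passed, where 2.12% of all genes did; 0 had an unadjusted p under 0.05 and 0 were called by DESeq2 (7.19% and 4.25% of all genes). The median over the 6 was -0.63, against -0.24 without replicate 1 of brat RNAi and -1.15 without its replicate 2. Non-overlap downward was seen at nop5, Nop60B and Fib and at 11.8% of genes. The SBa code block called nop5 (-1.73 ± 0.38, adjusted p = 0.00012) and Nop60B (-1.40 ± 0.38, adjusted p = 0.0036) lower, and 6.53% of all genes. In that fit these calls rest on replicate 1 of brat RNAi, the only library of that group that shares a code with neurons. The 1 residual degree of freedom comes from neuron and type I libraries alone.

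Over brat numb RNAi the log2 fold change in neurons was -1.41 ± 0.68 at nop5 (edgeR, adjusted p = 0.52), -1.05 ± 0.67 at Nop60B (0.94), -0.66 ± 0.67 at Ns1, -0.35 ± 0.66 at dm, -0.29 ± 0.66 at Fib and 0.12 ± 0.66 at Nopp140 (1 each). No member passed, where 2.21% of all genes did; 1 had an unadjusted p under 0.05 and 0 were called by DESeq2 (8.18% and 3.78% of all genes). The median over the 6 was -0.50, against -0.83 without replicate 1 of brat numb RNAi and -0.01 without its replicate 2. Non-overlap downward was seen at nop5 and Nop60B and at 11.1% of genes, and the SBa code block called nop5 (-3.41 ± 0.58, adjusted p = 3.6e-07), Nop60B (-2.12 ± 0.57, 0.0022) and Ns1 (-2.31 ± 0.59, 0.0011) lower, and 13.2% of all genes. With the block the median over the 6 was -1.66. Neurons and brat numb RNAi share no code, so the block fit links them only through the brat RNAi libraries, of which replicate 2 is the shallowest. Replicate 1 of brat numb RNAi has a code of its own for H3K4me3 and adds nothing to these block values, which therefore rest on chains of single libraries. The Myc network held the 1 call of any list in the fit of 8 libraries: Mnt rose, with 187 and 31.7 CPM in neurons and 21.6 and 23.0 CPM in brat numb RNAi (2.29 ± 0.70, adjusted p = 0.0499). It rested on replicate 1 of the neurons, without which the log2 fold change was 0.43 (adjusted p = 1).

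Over the 8 H3K4me3 libraries, log2 CPM of dm followed that of the 5 nucleolar genes at Pearson's r of 0.762 (nop5) to 0.859 (Ns1), and the nucleolar genes followed one another at 0.710 to 0.963. Among genes above the median abundance, those most like dm were CG34132 (r = 0.974), CG4042 (0.968), su(Hw) (0.961), aPKC (0.956) and Ssb-c31a (0.951). Those most like the mean of the 5 nucleolar genes were wee, l(2)34Fd and CG42232 (0.995 each) and Ski6 and Caf1-105 (0.994 each), where the median over all such genes was 0.668. The libraries share depth, contrast and code, and these r are descriptions only.

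H3K27me3 over the gene models was low at dm in every group. It was highest at Nop60B in neurons, brat RNAi and type I neuroblasts, whereas in brat numb RNAi Ns1 stood above Nop60B. Per kilobase of gene, dm had 4.44 and 5.68 CPM in neurons, 3.66 and 2.73 in brat numb RNAi, 1.48 and 4.01 in brat RNAi and 2.74 and 3.44 in type I neuroblasts. Both neuron libraries stood above the other 6, yet dm lay at or below the 7.78 percentile of all genes in every library, among the least marked genes even where its H3K4me3 was lowest. Fib was also low, with 2.82 and 6.04 CPM per kb in neurons, 3.96 and 4.38 in brat numb RNAi, 3.01 and 1.79 in brat RNAi and 4.65 and 4.16 in type I neuroblasts. Its neuron libraries enclosed the range of both brat numb RNAi and type I neuroblasts.

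Nop60B had 15.8 and 14.2 CPM per kb in neurons, 8.28 and 8.20 in brat numb RNAi, 12.2 and 11.5 in brat RNAi and 13.1 and 9.51 in type I neuroblasts. The groups other than type I neuroblasts did not overlap one another. Such non-overlap was common among all genes. Brat numb RNAi lay below brat RNAi at 29.7% of genes, and neurons lay above brat RNAi at 25.7% and above brat numb RNAi at 19.1%. By rank it stood at the 85.2 and 94.8 percentile in neurons, 45.5 and 45.7 in brat numb RNAi, 58.3 and 67.1 in brat RNAi and 66.6 and 57.7 in type I neuroblasts. It was the one gene of the 6 with H3K27me3 in the upper ranks of neurons in both libraries, where its H3K4me3 was 64.2 and 54.2 CPM. Replicate 2 of the neurons had the lowest contrast of the H3K27me3 libraries, a ratio of 1.87, so its ranks span a narrow range of levels.

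Nopp140 had 4.87 and 7.18 CPM per kb in neurons, 6.16 and 6.29 in brat numb RNAi, 2.93 and 3.40 in brat RNAi and 4.40 and 6.07 in type I neuroblasts. Ns1 had 8.09 and 10.2 CPM per kb in neurons, 8.54 and 9.56 in brat numb RNAi, 5.10 and 4.89 in brat RNAi and 7.24 and 8.46 in type I neuroblasts. Both genes were lowest in the brat RNAi libraries. For nop5, whose reads are shared with x16, the values were 4.0 and 6.23 CPM per kb in neurons, 8.10 and 8.05 in brat numb RNAi, 5.87 and 3.55 in brat RNAi and 4.84 and 7.48 in type I neuroblasts.

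**Figure D4:**
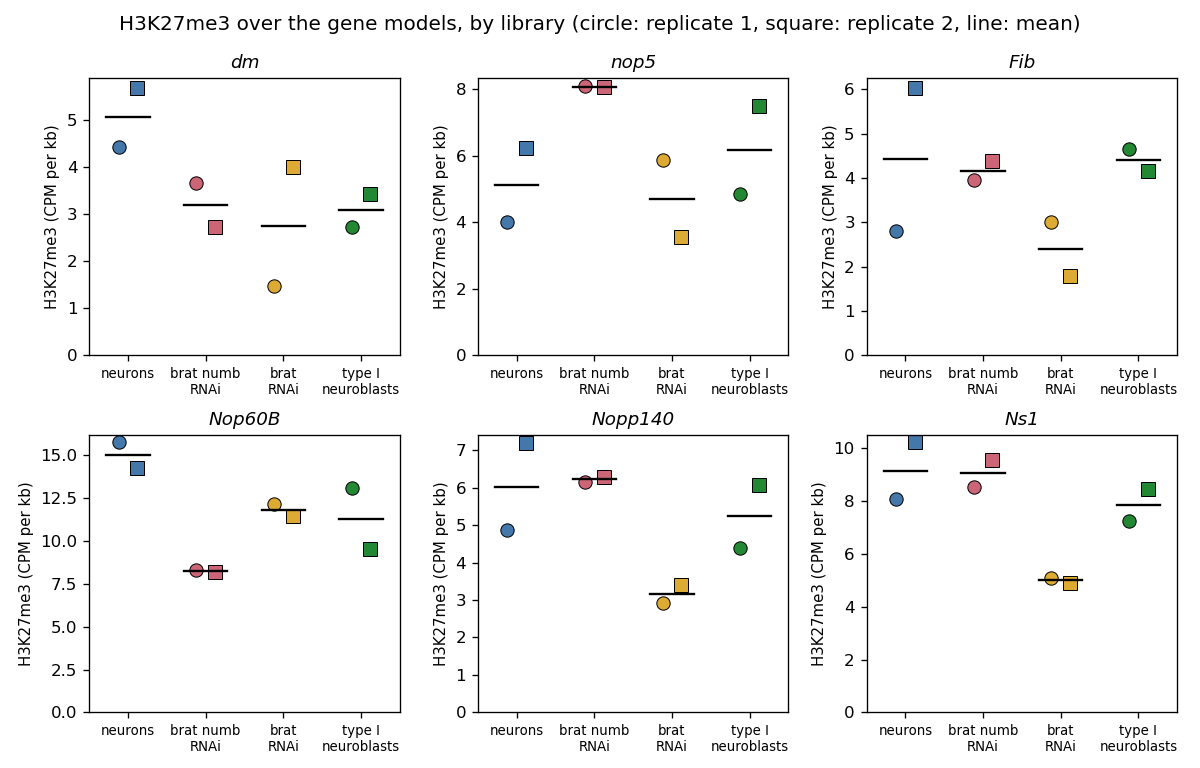
H3K27me3 (CPM per kb of gene model, y axis from 0) over each of the 6 genes in neurons, brat numb RNAi, brat RNAi and type I neuroblasts; circles are replicate 1, squares replicate 2 and lines the mean of 2 libraries. Nop60B has 15.8 and 14.2 CPM per kb in neurons and 8.28 and 8.20 in brat numb RNAi, while dm stays at or below 5.68 in every library.

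No member passed edgeR's test for H3K27me3 in any of the 6 comparisons, and 0% of the 14182 genes passed in each of them. DESeq2 called 0 members in each, and 0% to 1.94% of all genes. In neurons against type I neuroblasts the log2 fold change was 0.71 ± 0.44 at dm and 0.41 ± 0.23 at Nop60B (edgeR, adjusted p = 0.54 and 0.53). Both neuron libraries were above both type I libraries at dm and Nop60B, as at 18.8% of genes, and no member had an unadjusted p under 0.05, where 9% of all genes did. In neurons against brat numb RNAi Nop60B was at 0.87 ± 0.23 (unadjusted p = 0.0039, adjusted p = 0.53), the 1 member with an unadjusted p under 0.05 there, where 5.92% of all genes had one.

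Against type I neuroblasts, brat RNAi was at -0.89 ± 0.41 at Fib, -0.73 ± 0.32 at Nopp140 and -0.65 ± 0.28 at Ns1 (edgeR, adjusted p of 0.83 to 0.84), and these 3 did not overlap, as at 14.5% of genes; 2 members and 5.94% of all genes had an unadjusted p under 0.05. In brat numb RNAi against type I neuroblasts the values were -0.46 ± 0.23 at Nop60B to 0.39 ± 0.36 at nop5, with 0 members and 2.96% of all genes at an unadjusted p under 0.05. In brat numb RNAi against brat RNAi, Nopp140 was at 0.97 ± 0.32 and Ns1 at 0.86 ± 0.28 (edgeR, adjusted p = 0.21 each) and Nop60B at -0.52 ± 0.23 (adjusted p = 0.26), the 3 with an unadjusted p under 0.05, which 18.8% of all genes had. Both brat numb RNAi libraries were above both brat RNAi libraries at nop5, Fib, Nopp140 and Ns1, as at 30.7% of genes. In neurons against brat RNAi, Nopp140 was at 0.93 ± 0.32 and Ns1 at 0.88 ± 0.28 (edgeR, adjusted p = 0.18 and 0.17), the 2 with an unadjusted p under 0.05, which 22.9% of all genes had, and dm, Nop60B, Nopp140 and Ns1 did not overlap upward, as at 25.7% of genes. The contrast of H3K27me3 libraries differed within groups as well as between them. The ratio of the 90th to the 10th percentile of scaled counts per kilobase was 4.12 and 1.87 in neurons, 2.68 and 2.99 in brat numb RNAi, 7.88 and 4.15 in brat RNAi and 5.43 and 3.21 in type I neuroblasts. It was highest in replicate 1 of brat RNAi, and at lowly marked genes such as these its part was not tested.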

How the data were processed

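The deposited tables give, for each library, an unnormalized read count per gene. The submitters' processing notes name dm3 as build and, as tools, bedtools 2.25.0, Bowtie2 2.2.4 and deepTools 2.5.0.1. Counting settings and duplicate handling are not given in the sources used here, and no input was subtracted from the counts. The fit used edgeR 4.0.16 under R 4.3.3 (quasi-likelihood, robust, TMM scaling, default filter on low counts, 4 group means of 8 libraries per mark, 4 residual degrees of freedom), with Benjamini-Hochberg adjustment across every gene tested and calls at an adjusted p under 0.05. CPM are TMM-scaled, and the SE of a log2 fold change is its size divided by the square root of F, which draws on genes of like abundance more than on a gene's own spread. DESeq2 1.42.0 was the other tool. The members, gene lists and tests were chosen with earlier results of these data known. Named are the 6 members in every comparison and, of each list, up to 3 genes past the threshold or otherwise the 2 with the smallest p. List genes are given by name for H3K4me3 of neurons over type I neuroblasts, and elsewhere only where past the threshold. List medians are given for H3K4me3 of each group over type I neuroblasts, and are left out for the other comparisons and for H3K27me3. Max, Mnt and Nlp in neurons over type I neuroblasts and the neighbouring genes were named after their values were seen. Gene names were matched by symbol or synonym to RefSeq annotation, from which no coordinates were taken; Ns1 is written ns1 in the count tables. The fits were tested on simulated data, in which libraries differed in size but not in contrast or by SBa code. That test therefore says nothing of how the fits deal with contrast or code. Alternatives were other scalings, abundance-trend offsets (loess span 0.3), no filter, DESeq2, blocks for replicate number and SBa code, the compared groups alone and each library left out.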

Additional observations from a re-analysis of the deposited data

How the results depend on the processing

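For H3K4me3, calls of the 6 genes appeared under some settings where the fit of 8 libraries made 0. In neurons against type I neuroblasts they numbered 2 with library totals (3.33% of all genes called), 6 with the SBa code block (32.5%), 2 in the groups alone (3.45%), 2 without the 2 shallowest libraries (brat RNAi replicate 2, brat numb RNAi replicate 1; 3.68%), 2 without these and neuron replicate 2 (3.82%), and 0 to 2 with 1 library left out (0.0141% to 2.82%). In neurons against brat RNAi they were 1 with library totals (4.49%), 2 with the code block (12.6%) and 2 without each set of libraries (3.63% and 4.07%). Against brat numb RNAi they were 1 (5.8%), 3 (25.7%), 1 (4.36%) and 2 (5.41%) in this order, and 0 to 1 with 1 library left out (0.0846% to 3.89%). In brat numb RNAi against brat RNAi the code block gave 3 (26.9%). The last 2 sets of libraries left out were chosen after seeing the data. All calls of neurons were lower, and that of brat numb RNAi over brat RNAi higher. A change of sign was counted where at least 1 of the values was past its SE or called: of 1350 values 82 changed sign, 71 of them with both values within their SE, and 11 were counted. With the SBa code block these were nop5 (1.47), Nopp140 (0.27) and Ns1 (1.22) in brat numb RNAi over type I neuroblasts, Nop60B (0.73) and Nopp140 (1.09) in brat numb RNAi over brat RNAi and Nopp140 (-1.19) in neurons over brat numb RNAi. With 1 library left out, H3K4me3 ranged from -0.96 to 1.05 at nop5 in brat numb RNAi over brat RNAi and from -0.65 to 0.69 at Nopp140 in neurons over brat RNAi. H3K27me3 ranged from -0.64 to 0.50 at Fib in neurons over type I neuroblasts, from -0.56 to 0.52 at Fib in neurons over brat numb RNAi and from -1.12 to 0.40 at dm in brat RNAi over type I neuroblasts. The cause was not tested. Scaling moved the median of all genes in neurons over type I neuroblasts: 0.24 with TMM, 0.61 with library totals and 0.10 with DESeq2 size factors; all 6 genes stayed below 0 with each.

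Replicate numbers were not taken to pair the samples, since not every pair of groups correlated. Same-numbered libraries of neurons, brat RNAi and type I neuroblasts, whose replicate 1 shares a code, deviated together (r of 0.445 to 0.740 for H3K4me3 and 0.570 to 0.619 for H3K27me3). Those of brat numb RNAi, whose replicate 1 has another code, deviated against them (-0.616 to -0.314 and -0.415 to -0.365). The replicate block called 0 of the 6 genes in every comparison. The SBa code block could not be fitted for H3K27me3 and left 1 residual degree of freedom for H3K4me3. The lowest H3K4me3 count, 204 at nop5, was in the shallowest library, brat RNAi replicate 2; the lowest H3K27me3 count, 60 at Fib, was in a library of 19045164 reads. Mnt in neurons over brat numb RNAi kept its call in 4 of 18 settings.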
